A study of Mus musculus with 33 samples.

Results

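The SRF peaks found in wild type mouse embryonic fibroblasts after 12 min of heat shock were set beside the HSF1 peaks of the same cells and time. There were 68 such SRF peaks among the 45686 peaks of the 15 peak lists of the series, and all 68 were used. Each was placed in 1 of 4 classes. A peak was overlapping when it shared at least 1 bp with an HSF1 peak. The others were within 5 kb, within 50 kb or farther, by the distance from their summit to the nearest HSF1 summit.

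The study mapped HSF1 and SRF by ChIP-seq, in which DNA bound by a protein is pulled down with an antibody and sequenced. The cells were fibroblasts grown from embryos of 129Sv.BALB/c background, either wild type or HSF1-/-, and not heat shocked or heat shocked for 12 or 60 min. HSF1 was pulled down with the antibodies labelled CS and MM, which gave 1781 and 1927 peaks in wild type cells at 12 min, and SRF with its own antibody. That both recognise HSF1 was taken from their file headers, which name an Hsf1 experiment, since the labels give no target. The HSF1-/- lists of CS and MM at 12 min served as the background of these antibodies. Each list came from 1 called library, which for wild type HSF1 merged 2 replicates per the file headers, so peaks carry no replicate error and no test was made between conditions. Peak lists hold no expression, so the cell type was not checked against its marker genes.

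SRF is a MADS-box transcription factor that binds the CArG box, a short element with C at one end, G at the other and A or T between them. It works with cofactors of the MRTF family, which respond to the state of actin, and of the TCF family, which respond to growth factor signals through MAP kinases. Its known targets are immediate early genes and genes of the actin cytoskeleton. HSF1 binds heat shock elements, which are alternating GAA and TTC units, and is known for switching on chaperone genes under heat stress.

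The SRF library was shallow. It held 1.55 M tags after filtering (M for mega), with 80% of tags redundant, against 26.3 M for CS and 17.7 M for MM. Its IgG control held 0.337 M tags, with 98% redundant. The deposited fold and q of every SRF peak rest on that control. The pileup of an SRF peak, the number of tags over its summit, was 4 at the median and ran from 2 to 15. Of the 68 peaks, 35 had a deposited -log10 q of 1.3 or more. Most peaks with a pileup of 3 were listed at 1.29, just under that limit. Of the peaks, 6 lay at the very start of the assembled chromosome 9 and 2 in the mitochondrial genome. These 8 had pileups of 6 to 15 but a fold enrichment of 5.01 to 32.68, where the median of all SRF peaks was 103. All 8 fell in the farther class.

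The letters under the SRF summits were read where a RefSeq promoter window was available. These windows run from 250 bases before a transcript start to 50 after it, on GRCm38.p6, the assembly that corresponds to mm10. An SRF peak overlapped the windows of 16 genes, and the 6 printed here show the arrangements met among them. Sf3b2, Myl12a and Wdr1 had SRF inside an HSF1 peak, Mcl1 had the HSF1 peak downstream of its start, and Gga1 and Tpm1 had no HSF1 peak at the promoter. Each is printed 5′ to 3′ on the gene's own strand, from 250 bases before the start to 10 after it. Capitals mark a heat shock element pair (GAANNTTC or TTCNNGAA, searched on both strands) or a CArG box with at most 1 mismatch.
Sf3b2 (chr19:5295448-5295707, minus strand): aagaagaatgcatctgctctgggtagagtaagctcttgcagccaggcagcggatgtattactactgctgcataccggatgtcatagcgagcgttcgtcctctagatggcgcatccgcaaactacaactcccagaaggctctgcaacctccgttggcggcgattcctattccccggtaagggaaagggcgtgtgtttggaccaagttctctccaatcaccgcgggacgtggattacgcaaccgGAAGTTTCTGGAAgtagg
Myl12a (chr17:71002524-71002783, minus strand): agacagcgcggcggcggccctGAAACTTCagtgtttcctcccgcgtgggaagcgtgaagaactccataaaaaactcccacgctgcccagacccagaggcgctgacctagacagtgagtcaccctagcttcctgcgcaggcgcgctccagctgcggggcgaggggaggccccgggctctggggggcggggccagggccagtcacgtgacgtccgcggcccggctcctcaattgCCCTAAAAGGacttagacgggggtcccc
Wdr1 (chr5:38561690-38561949, minus strand): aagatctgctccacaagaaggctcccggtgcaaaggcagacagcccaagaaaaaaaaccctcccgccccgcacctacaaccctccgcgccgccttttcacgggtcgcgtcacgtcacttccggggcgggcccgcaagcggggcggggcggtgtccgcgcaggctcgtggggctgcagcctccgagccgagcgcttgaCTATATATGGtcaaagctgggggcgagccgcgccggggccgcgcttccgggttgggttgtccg
Mcl1 (chr3:95658471-95658730, plus strand): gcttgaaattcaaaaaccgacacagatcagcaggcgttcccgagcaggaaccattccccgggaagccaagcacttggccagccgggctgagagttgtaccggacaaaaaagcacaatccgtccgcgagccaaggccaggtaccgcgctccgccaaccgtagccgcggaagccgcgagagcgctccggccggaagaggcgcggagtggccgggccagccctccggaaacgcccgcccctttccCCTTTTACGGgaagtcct
Gga1 (chr15:78876940-78877199, plus strand): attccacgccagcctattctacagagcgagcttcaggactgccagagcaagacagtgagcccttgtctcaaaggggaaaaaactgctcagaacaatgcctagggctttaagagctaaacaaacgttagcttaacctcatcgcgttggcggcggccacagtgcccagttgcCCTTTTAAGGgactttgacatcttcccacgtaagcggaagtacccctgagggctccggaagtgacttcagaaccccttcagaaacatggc
Tpm1 (chr9:67049204-67049463, minus strand): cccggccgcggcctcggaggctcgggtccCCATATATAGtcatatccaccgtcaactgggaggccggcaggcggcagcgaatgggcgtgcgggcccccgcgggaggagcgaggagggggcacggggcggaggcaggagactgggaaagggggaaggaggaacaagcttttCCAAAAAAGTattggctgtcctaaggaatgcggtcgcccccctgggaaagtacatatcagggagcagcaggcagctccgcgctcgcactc

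At Myl12a, which encodes a regulatory light chain of nonmuscle myosin, the SRF summit was 283 bp from the CS and MM summits. Among the matches in the window, the SRF summit and the HSF1 summits were each nearer to a different one. The HSF1 summits lay upstream of the window, 294 bp from the gene, so the letters under them were not read. The SRF peak there had a pileup of 3 and a -log10 q of 1.29. The SRF summit was 2 bp from the middle of the near CArG box, which spans bases -18 to -9 counted from the transcript start as base 1. The heat shock element pair lay farther upstream, at bases -229 to -222. It was 69 bp from the CS and MM summits and 214 bp from the SRF summit. At Wdr1, whose product helps cofilin to take actin filaments apart, the near CArG box at bases -53 to -44 was 3 bp from the SRF summit, 196 bp from the CS summit and 254 bp from the MM summit. No heat shock element pair was in the Wdr1 window, which did not reach the MM summit.

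Sf3b2, which encodes a subunit of the splicing factor SF3b, showed another arrangement. Its window held a heat shock element of 3 units across the start, at bases -8 to 5, and no CArG box even with 1 mismatch. The middle of that element was 7 bp from the CS summit, 8 bp from the MM summit and 12 bp from the SRF summit. The SRF peak there was weak, with a pileup of 3 and a -log10 q of 0.53.

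Over the 16 promoters, a CArG box without mismatch was in 3 windows, those of Gga1, Glipr2 and Gm1720, where 1.63% of all 32851 promoter windows held one. None of these 3 had an HSF1 peak at the window. With 1 mismatch allowed, a setting chosen after the windows had been seen, 13 of the 16 genes had a match and 21.1% of all windows did. The match lay within 10 bp of the SRF summit at 8 genes (Gm1720, Myl12a, Wdr1, Gga1, Map3k14, Tpm1, Homer1 and Mcl1) and within 50 bp at 11. All 11 genes whose window an SRF peak but no HSF1 peak overlapped had such a match, and 2 of the 5 whose window both overlapped, Myl12a and Wdr1.

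Heat shock element pairs were in the windows of 2 of the 5 genes with both factors, Sf3b2 and Myl12a, and of 0 of the 11 genes with SRF only. These counts are too few to set apart from the 15.1% of all windows that held a pair. Among the 579 windows that an HSF1 peak overlapped 28.2% did. The element of 3 units was in 0.603% of all windows and 6.04% of those under HSF1. A match describes the letters and is not a measured binding site, and a window without a match shows only that these letters are not in it. At Myl12a, Tcte3 and Gm3417 the CS and MM summits lay outside the window, and at Wdr1 the MM summit did. The letters at those summits were not read. Tcte3 and Gm3417, the remaining 2 of the 5, have identical windows, as does Gm3448, so they are 1 sequence counted at 2 genes, and tags at these copies cannot be assigned to one of them.

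**Figure D1:**
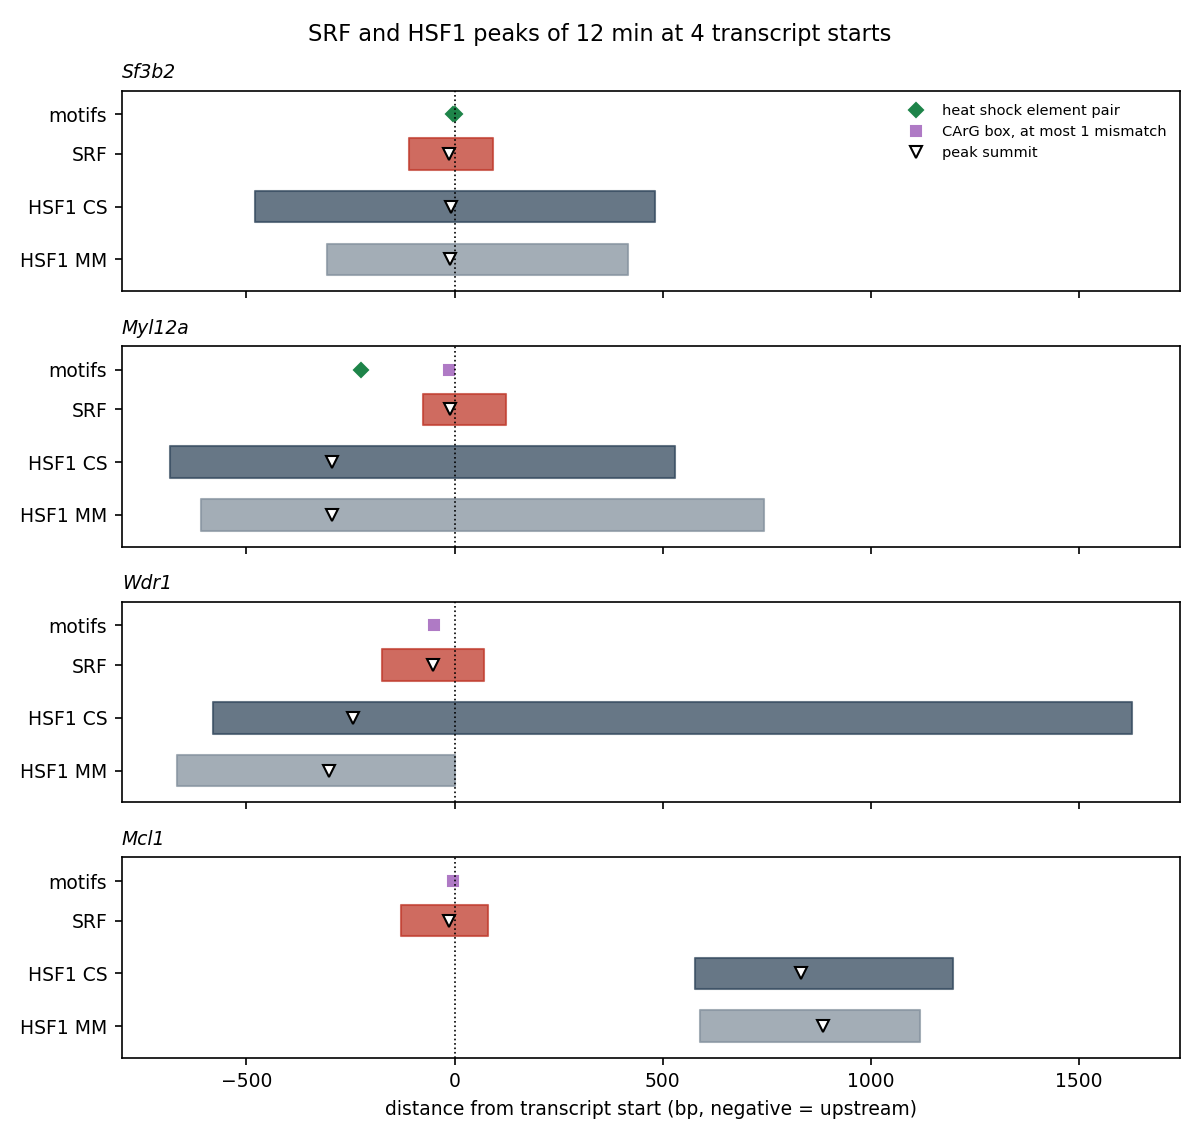
Bars show the extent of the SRF, CS and MM peaks of 12 min around the transcript starts of Sf3b2, Myl12a, Wdr1 and Mcl1, as distance from the start in bp, with triangles at the summits and marks for the motifs. At Sf3b2 the 3 summits fall close together, 7 bp (CS), 8 bp (MM) and 12 bp (SRF) from the middle of the heat shock element of 3 units. At Myl12a and Wdr1 the SRF summit sits on the near CArG box (2 and 3 bp) inside wider HSF1 peaks. At Mcl1 the peaks do not touch.

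Of the SRF peaks, 25.0% lay inside HSF1 peaks. Overlapping peaks numbered 17 of 68 (25.0%, 95% exact Clopper-Pearson interval 15.3% to 37.0%, which covers counting error only). A single peak, at Mcl1, was within 5 kb (1.47%). Within 50 kb were 16 (23.5%, 14.1% to 35.4%), and 34 of the 68 were farther (interval 37.6% to 62.4%). For comparison, the HSF1 peaks covered 1.88 megabases or 0.101% of the effective genome size given in the MACS header, the stretches within 5 kb of an HSF1 summit 1.19% and those within 50 kb 10.4%. Of the starts of protein-coding transcripts 2.01% lay inside an HSF1 peak, 3.80% inside one or within 5 kb of a summit, and 14.5% within 50 kb. The genome and start shares for 5 kb and 50 kb include the nearer places, whereas the 4 classes of SRF peaks do not overlap. Counted like those shares, 18 of the 68 SRF peaks were overlapping or within 5 kb, and 34 were overlapping or within 50 kb. These shares and counts are set side by side without a test.

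Around the class limits, overlapping peaks reached 691 bp between summits (Myh9), the Mcl1 peak followed at 845 bp, and the next peak was 5913 bp away, near Gm15319. The limit of 50 kb fell between Dstn at 47532 bp and Tpm1 at 60159 bp. All 17 overlapping SRF peaks lay whole inside a CS or MM peak. Their summits were 4 to 691 bp from an HSF1 summit, within 100 bp at 7 and within 300 bp at 14. Both antibodies marked 14 of the 17, CS alone 2 and MM alone 1.

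SRF pileups were low in the overlapping class. The pileup was 3 at the median (2 to 6), against 3.5 (3 to 6) within 50 kb and 4.5 (3 to 15) in the farther class, or 4 (3 to 12) without the 8 peaks of chromosome 9 and the mitochondrial genome. The median fold did not differ, at 103 in each class. A -log10 q of 1.3 or more was listed for 5 of the 17, 8 of the 16 within 50 kb and 21 of the 34 farther peaks. Read the other way, 5 of 35 peaks above that limit overlapped HSF1 (14.3%, 4.81% to 30.3%) and 12 of 33 below it (36.4%, 20.4% to 54.9%). Restricting HSF1 to peaks with a deposited p of 1e-10 or less left 9 of the 68 overlapping. Without the 8 peaks of chromosome 9 and the mitochondrial genome, 17 of 60 overlapped (28.3%).

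**Figure D2:**
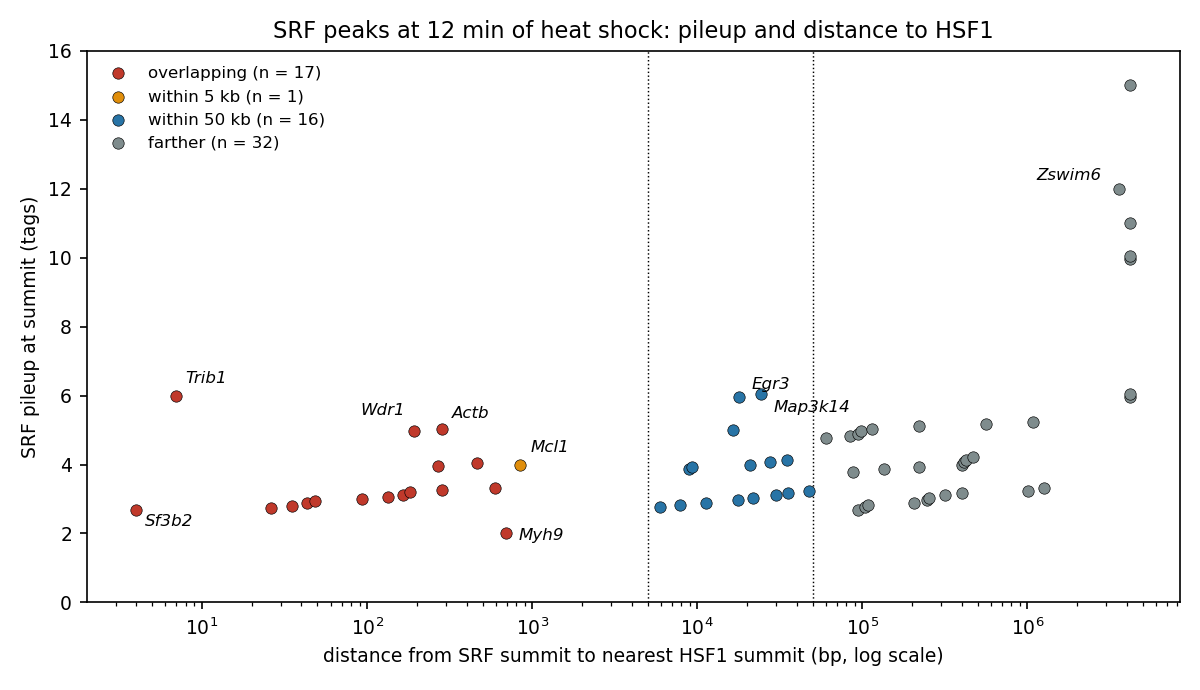
Each point is an SRF peak of 12 min, by distance from its summit to the nearest HSF1 summit (bp, log scale) and by pileup (tags), coloured by class; equal pileups are spread slightly in the vertical, and the 2 mitochondrial peaks, with no HSF1 peak on their chromosome, are left out. Overlapping peaks have pileups of 2 to 6, a gap lies between Mcl1 at 845 bp and the next peak at 5913 bp, and of the 5 peaks with a pileup of 10 or more 4 are those at the start of chromosome 9 and 1 is at Zswim6.

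Genes of the actin cytoskeleton list held 3 of the 7 overlapping peaks that lay at a gene, meaning inside it or within 1 kb of an end. Over all classes, 5 of the 37 SRF peaks at a gene were at genes of that list. It holds 52 of the 21631 protein-coding genes. These counts are small and were not tested. The Wdr1 peak (chr5:38561630-38561873) was the strongest of the 3, with a pileup of 5, a fold of 138.9 and a -log10 q of 4.69. It lay in HSF1 peaks of 247 CS tags and 110 MM tags. The Myl12a peak (chr17:71002411-71002610), next to Myom1, had a pileup of 3 and a -log10 q of 1.29, in HSF1 peaks of 121 CS and 103 MM tags. Both sit at transcript starts, the SRF summit 51 bp upstream at Wdr1 and 11 bp upstream at Myl12a.

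Myh9, the heavy chain of nonmuscle myosin IIA, carried its SRF peak (chr15:77798745-77799079) within the gene, 43335 bp downstream of the nearest listed transcript start. That peak was the weakest of all 68, with a pileup of 2 and a -log10 q of 0. The HSF1 peak around it was the longest and had the most tags of those holding SRF, at 2948 bp and 313 CS tags, with 107 MM tags. The CS peak at Myh9 also overlapped a peak of an HSF1-/- list. The SRF and HSF1 summits were 691 bp apart, so the factors shared a peak but not a summit.

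Actb, cytoplasmic beta-actin, had an overlapping SRF peak 21227 bp away from the gene (chr5:142929104-142929349). It had a pileup of 5, a fold of 150.97 and a -log10 q of 4.69, and lay in HSF1 peaks of 253 CS and 163 MM tags. A second HSF1 peak lay 1736 bp (CS, 97 tags) or 1808 bp (MM, 98 tags) from Actb, with no SRF peak. Assignment to Actb rests on nearness only, and no data on contact between the 2 places were used here.

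The other gene peaks in the class were at Sf3b2 (84 CS and 50 MM tags), at the paired copies on chromosome 17, and inside Medag, a gene linked to fat cell formation. At Ermard with Tcte3 the HSF1 peaks had 247 CS and 136 MM tags, and at Gm3417 with 9030025P20Rik 233 and 120. The fold of these 2 HSF1 CS peaks was low, 12.04 and 9.51. Both SRF peaks had a pileup of 3. The Medag peak had a pileup of 3 and sat in HSF1 peaks of 172 CS and 88 MM tags, 594 bp from the nearest summit.

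The remaining 10 overlapping peaks lay outside protein-coding genes, and among them was the strongest of the class. That peak (chr15:59759635-59759887) had a pileup of 6, a fold of 169.09 and a -log10 q of 6.71, and was 102649 bp from the nearest gene, Trib1, which encodes a pseudokinase of the Tribbles family. Its summit was 7 bp from the CS summit and 597 bp from the MM summit. The HSF1 peaks there had 90 CS and 69 MM tags, at a CS fold of 9.9 with a deposited FDR of 28.75%.

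Peaks near Ap5b1, a subunit of an adaptor complex (1313 bp away), and Azin1, the antizyme inhibitor (16530 bp), each had a pileup of 4 and a -log10 q of 3.04. They lay in HSF1 peaks of 100 CS and 74 MM tags and of 210 CS and 104 MM tags. The SRF peak near Azin1 was the only one of the 17 that overlapped an HSF1-/- peak, a CS peak of 4 tags.

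The last 6 had a pileup of 3 and a -log10 q of 1.29 each. They lay 9924 bp from Wdr70, 17696 bp from Atp8b4, 30344 bp from Myo16, an unconventional myosin, 90817 bp from Tomm20, a receptor for protein import into mitochondria, 105824 bp from P3h2, a collagen-modifying enzyme, and 510830 bp from Myc. The peaks near Myc and Myo16 were marked by CS alone and the P3h2 peak by MM alone. CS tags at these places ran from 46 near Myc to 159 near Atp8b4, where the CS fold of 44.92 was the highest of the 16 CS peaks with SRF, and the P3h2 place had 15 MM tags.

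Mcl1, an anti-apoptotic member of the Bcl2 family counted among immediate early genes, had both factors without overlap. The SRF summit was 13 bp upstream of the transcript start (chr3:95658592-95658800), with a pileup of 4 and a -log10 q of 3.04. The CS summit was 845 bp and the MM summit 899 bp downstream of it. The HSF1 peaks were small, with 39 CS and 22 MM tags, where the medians of their lists were 67 and 38. Their deposited FDR was 14.79% for CS and 43.67% for MM. At 60 min HSF1 peaks of 130 CS and 90 MM tags overlapped the place of the 12 min SRF peak.

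The HSF1 peaks that held SRF were long, held many tags and had a low fold. In the CS list 16 of 1781 peaks (0.898%) held an SRF peak. Their tags had a median of 140 (46 to 313), where the whole list had 67, and their length a median of 1480 bp (741 to 2948), where the list had 778 bp. Of the 16, 13 were above the list's median of tags and 14 above that of length. Their fold had a median of 18.4 (9.51 to 44.92), where the list had 23.8, and 14 of the 16 were below the list's median.

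The MM list gave a like description, although both lists share their IgG library. There 15 of 1927 peaks (0.778%) held SRF, with a median of 88 tags (15 to 163; list 38), 1057 bp (397 to 1586; list 604 bp) and a fold of 11.1 (7.52 to 27.0; list 14.9). Of the 15, 12 were above the list's median of tags and 11 below that of fold. HSF1 peaks with a summit within 1 kb of a transcript start and no SRF lay between, with medians of 98 CS tags, 1033 bp and a fold of 22.7, and of 47 MM tags, 731 bp and 12.8. Length moved together with tags in these peaks, and its part in their holding SRF was not tested.

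**Figure D3:**
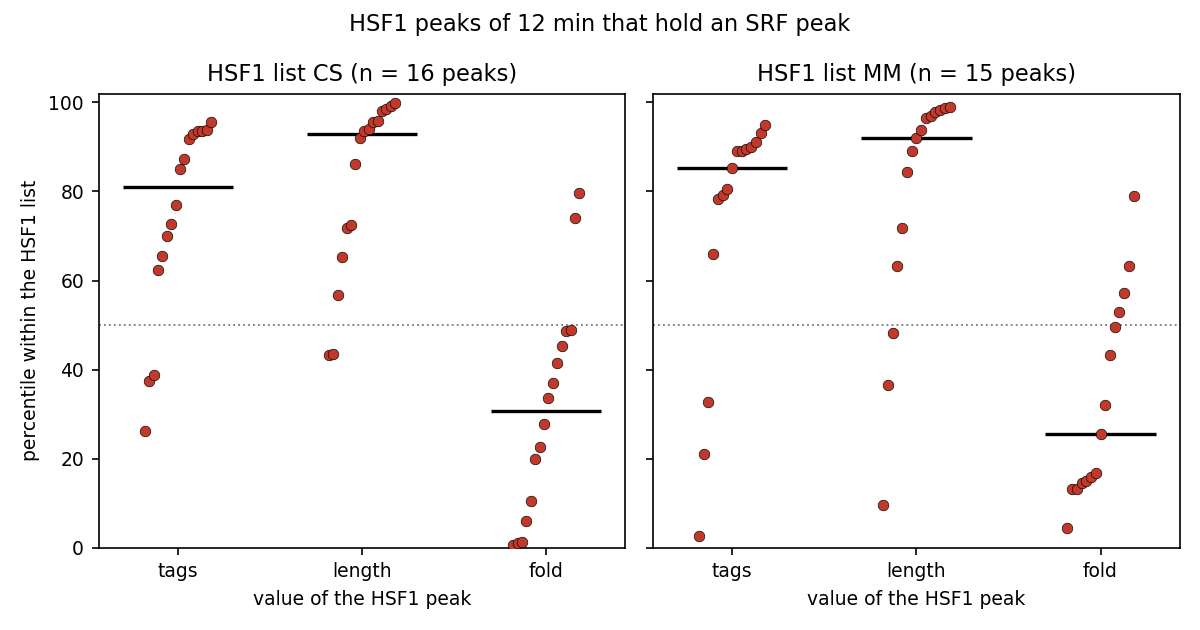
Points are the HSF1 peaks of 12 min that hold an SRF peak, by the percentile of their tags, length and fold within the CS list (16 peaks) or the MM list (15 peaks); bars are medians and the dotted line is the list's middle. Median percentiles are 80.9 and 85.2 for tags, 92.8 and 92.0 for length, and 30.7 and 25.6 for fold.

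The background antibody signal at these places was looked at in the HSF1-/- lists, which were called without a control library. Of the 16 CS peaks with SRF, 3 overlapped an HSF1-/- peak (18.8%), those near Wdr70 and Azin1 and in Myh9, where 4.04% of all CS peaks did. Of the 15 MM peaks 1 did, near Azin1 (6.67%; list 3.58%). For HSF1 peaks with a summit within 1 kb of a transcript start and no SRF, the shares were 9.23% (CS) and 7.93% (MM). Overlap with a peak of either HSF1-/- list was counted. These shares take no account of length, which for CS had a median of 1480 bp with SRF and 778 bp in the list. The HSF1-/- libraries held 5.18 M tags for CS and 15.6 M for MM, where wild type held 26.3 M and 17.7 M. A place without an HSF1-/- peak can therefore not be called free of background. Among all 68 SRF peaks, 5 overlapped an HSF1-/- peak. Apart from Azin1 these were a peak inside Gse1 (6 MM tags), both mitochondrial peaks (92 and 135 CS tags) and 1 of the chromosome 9 peaks, where the HSF1-/- CS peak held 6990 tags.

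Within 50 kb but apart from HSF1 were SRF peaks at known kinds of SRF target and at starts with a CArG box. Egr3, an immediate early zinc finger factor, had the strongest, 2269 bp from the gene and 17832 bp from HSF1, with a pileup of 6 and a fold of 181.17. Map3k14, the NIK kinase of the noncanonical NF-kB pathway, also had a pileup of 6, 224 bp upstream of its start. Sertad1, an immediate early gene of cell cycle control, followed with 5. A pileup of 4 was found at Mob3a with Izumo4, at Gga1, an adaptor of Golgi transport, inside Jazf1, inside Dlgap1 and on the X chromosome at Gm1720, where Egfl6 was the nearest protein-coding gene at 76192 bp.

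The other 8 of these 16 peaks had a pileup of 3. They were at Dstn with Bfsp1, where Dstn encodes destrin, an actin-depolymerizing protein, inside Htra3, Gse1 (2 peaks), Atp2b4 and Synpo2, an actin-binding protein, and near Gm15319 and 1810013L24Rik. By position, 5 of the 16 were within 1 kb of a gene end, 7 inside genes and 4 outside. In this class 8 of 16 peaks overlapped an SRF peak found before heat shock, where 2 of 17 overlapping peaks and 5 of 34 farther peaks did.

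The farther class held the strongest SRF peak of a gene. Zswim6 had a pileup of 12, a fold of 344.22 and a -log10 q of 19.13, and the nearest HSF1 summit was 3600154 bp away. Of the actin cytoskeleton list, Tpm1 held 1 of these peaks, and peaks lay more than 1 kb from Actg1 and Cfl1. Tpm1, a tropomyosin, had a pileup of 5 and a fold of 163.05, 212 bp upstream of its start. Actg1, cytoplasmic gamma-actin, had a peak of pileup 5 at a distance of 1790 bp, and the peak at Mus81, also of pileup 5, lay 1306 bp from Cfl1, which encodes cofilin. Fhl3, which is not in that list, had a pileup of 4.

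Immediate early genes in the farther class were Egr1, with a pileup of 5 and a fold of 147.06, Nr4a1, an orphan nuclear receptor, with 5 and 157.01, and Homer1, a synaptic scaffold protein with an inducible short form, with 5 and 130.72. Atoh8, Actbl2 (325298 bp away) and Tpcn2 (74992 bp) had folds of 157.01, 157.01 and 132.86. To account for the rest, a pileup of 4 was listed at Vdac2 and Dynlt1b, inside Mertk and near Cgn and Clec16a. The 10 peaks with a pileup of 3 included that at Glipr2, with its CArG box 43 bp from the summit. By position, 9 of the 34 were within 1 kb of a gene end, 8 inside genes, 15 outside and 2 mitochondrial.

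The peaks were then counted over gene lists. SRF was at 0.190% of the 21631 protein-coding genes (41), HSF1 at 5.95% (1288) and both at 0.0878% (19). Of 52 actin cytoskeleton genes, 5 had SRF (Dstn, Myh9, Myl12a, Tpm1 and Wdr1; 9.62%), 13 had HSF1 (25.0%) and 3 had both (Myh9, Myl12a and Wdr1; 5.77%). Genes with HSF1 and no SRF included Ablim1, Actn4, Cald1, Csrp1, Fhl2, Flnc, Lpp, Mylk and Tmod1, which encode proteins that cross-link, anchor or cap actin filaments or act on myosin.

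Of 37 immediate early genes, 5 had SRF (Egr1, Homer1, Mcl1, Nr4a1 and Sertad1; 13.5%), 10 had HSF1 (27.0%) and Mcl1 alone had both. The other 9 with HSF1 were Arc, Ccn1, Fos, Fosl2, Jun, Jund, Klf6, Npas4 and Nr4a2. Of 43 cytosolic chaperone genes, 31 had HSF1 (72.1%) and 0 had SRF. With SRF at 0.190% of all genes, a count of 0 in a list of this size is near the share over all genes. The SRF summit nearest to any chaperone gene was 227107 bp from Hsph1. These counts include summits inside genes and take no account of gene length. With summits within 1 kb of an end only, 1 of 52 actin genes (Myl12a) and 0 of 37 immediate early genes had both factors. Over all protein-coding genes that share was 0.0324%. HSF1 was then at 5 actin, 7 immediate early and 30 chaperone genes, and at 2.58% of all genes. With the distance widened to 50 kb, SRF was at 0.596% of protein-coding genes, HSF1 at 18.0% and both factors at 0.328%. At that distance 7 of 52 actin genes had both factors (Actb, Dstn, Myh9, Myl12a, Myl12b, Tpm1 and Wdr1), 3 of 37 immediate early genes (Egr3, Mcl1 and Sertad1) and 0 of 43 chaperone genes.

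None of the 7 genes of SRF and its cofactors had a peak of either factor. Among 5 heat shock factor genes Hsf2 had HSF1 and none had SRF, and among 19 marker genes of other cell types Cdh1 had HSF1 and none had SRF. Genes of a list can share a peak with a neighbour, and the lists were not tested. At the depth of the SRF library, a gene without a peak cannot be called free of SRF.

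**Figure D4:**
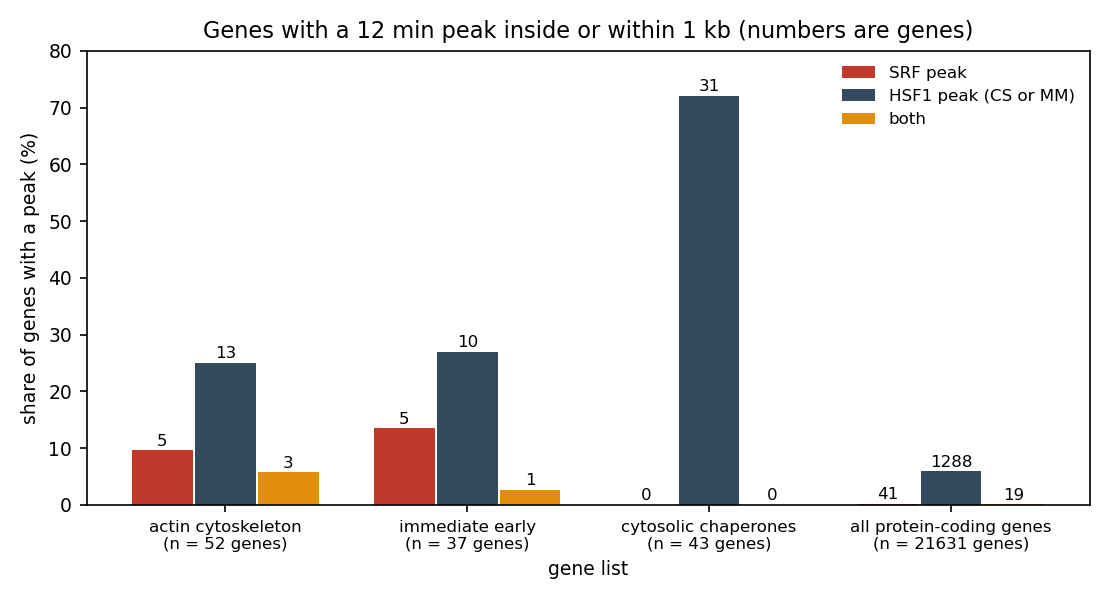
Bars give the share of genes (%) with a 12 min summit of SRF, of HSF1 (CS or MM) or of both inside the gene or within 1 kb of an end; the number of genes is printed on each bar. HSF1 is at 31 of 43 chaperone genes, and SRF is at 5 actin cytoskeleton genes, 5 immediate early genes and 0.190% of all protein-coding genes.

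The overlap with 12 min HSF1 peaks was next read for the SRF peaks of other times. Before heat shock 4 of 64 SRF peaks (6.25%, 1.73% to 15.2%) lay where HSF1 was found at 12 min. They were near Wdr70 and Myo16, where SRF was also called at 12 min, and at or near Camk2d and Actl7b, where it was not. At 60 min 1 of 18 did (5.56%, 0.141% to 27.3%), at Npas4, an immediate early factor. Against the HSF1 peaks of their own time, 5 of 18 SRF peaks of 60 min overlapped (27.8%, 9.69% to 53.5%). Before heat shock 0 of 64 did. The HSF1 lists differ in length, with 180 CS peaks before heat shock and 4773 at 60 min. Of the 12 min SRF peaks, 15 of the 53 with no SRF peak before heat shock overlapped HSF1 (28.3%, 16.8% to 42.3%), and 2 of the 15 with one did (13.3%, 1.66% to 40.5%). The intervals of these last shares overlap. The SRF lists differ in depth and tag length (19 bp before heat shock, 31 bp at 12 and 60 min), which cannot be told apart from time.

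**Figure D5:**
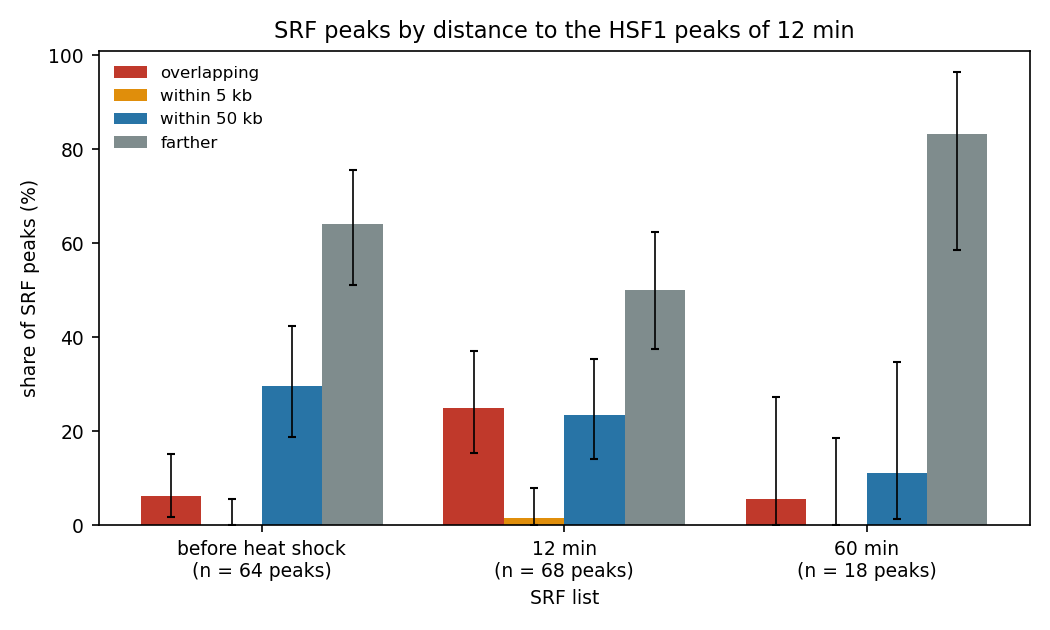
Bars give the share of SRF peaks (%) in each distance class to the 12 min HSF1 peaks, for the SRF lists before heat shock (64 peaks), at 12 min (68) and at 60 min (18); error bars are 95% exact binomial intervals. Overlapping peaks make up 25.0% at 12 min, 6.25% before heat shock and 5.56% at 60 min. Against the HSF1 peaks of 60 min, which are not drawn, 27.8% of the 60 min SRF peaks overlapped.

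The SRF peaks of 12 min were finally placed against HSF1 at the other times. None of the 68 overlapped an HSF1 peak found before heat shock, and 21 overlapped one of 60 min (30.9%, 20.2% to 43.3%). Of the 17 that overlapped HSF1 at 12 min, 12 did so at 60 min. These were all 7 at a gene and 5 of the 10 outside genes, near Atp8b4, Myo16, Ap5b1, Actb and Azin1. Of the other 51 SRF peaks, 9 lay under an HSF1 peak of 60 min, among them those at Mcl1, Map3k14 and Jazf1 and near Egr3. At Egr3 and Map3k14 only MM marked HSF1, with 54 and 34 tags.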

How the data were processed

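SRF and HSF1 peak lists of wild type cells were analysed at 3 times, with the HSF1-/- lists of 12 min. Per the file headers, HSF1 peaks were called with MACS 1.4.2 against IgG, the HSF1-/- lists without a control, and SRF peaks with MACS2 2.0.9 against IgG, all at a p cutoff of 1e-04. The SRF list kept at most 1 tag per position, per its header. The build was mm10, per the submitters' processing notes; the aligner was not given in the sources used here. The authors deposited, for each HSF1 peak, a tag count, a score (minus 10 times the log10 of p), a fold (ratio) and, with a control, an FDR in percent. For each SRF peak the authors deposited a pileup (signal), a fold, and the -log10 of p and q. These values are the authors' own and were used only within a list.

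Distances were computed between summits, and genes and promoter windows were taken from the RefSeq tables of GRCm38.p6, with 21631 protein-coding genes on the autosomes and the X chromosome. Shares carry 95% exact binomial intervals, and no test was made, since each condition had 1 list. A gene was named when it was nearest to an SRF peak that overlapped HSF1 or lay within 5 kb, among the 10 highest folds of another class, or a listed gene with a peak. Other genes of the classes within 50 kb and farther were named after their values were seen, to account for the peaks. The 6 lists hold 163 genes, all found. The peaks, lists and limits were chosen with earlier results of these data known. The planned search for motifs around every summit was replaced by promoter windows. The class and motif scripts were tested on simulated data. Python 3.11.15, pandas 2.3.3, numpy 2.4.6, scipy 1.17.1 and biopython 1.88 were used.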

Additional observations from a re-analysis of the deposited data

How the results depend on the processing

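The count of overlapping SRF peaks (17 of 68), of those overlapping or within 5 kb (18) and of those overlapping or within 50 kb (34) moved by less than 1.5 times in 9 of the 12 settings tried for each, where they ran from 14 to 17, 14 to 18 and 27 to 34. These settings were each antibody alone, HSF1 peaks found by both, an FDR of 5% or less, removal of places with an HSF1-/- peak from either factor, merging of SRF peaks within 10 kb, other definitions of overlap and distance, and, added after seeing the data, leaving out the chromosome 9 and mitochondrial peaks. The counts fell further under 3 settings. With a -log10 q of 1.3 or more they were 5, 6 and 14 of 35 SRF peaks, and with a pileup of 4 or more, also added after seeing the data, 5, 6 and 14 of 38; here fewer SRF peaks entered. With HSF1 peaks of p of 1e-10 or less they were 9, 9 and 17 of 68; here fewer HSF1 peaks entered. SRF peaks at a protein-coding gene numbered 37, 40 with gene ends widened to 5 kb and 18 within 1 kb of an end only. The pileups of 2 to 15 tags limit every SRF call. No paired analysis was possible because each condition had 1 list and no result comes from a test.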
